A study of Mus musculus with 24 samples.

Results

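The genes described here are the 10 enzymes of the methionine cycle and the transsulfuration pathway, Mat1a, Mat2a, Gnmt, Bhmt, Bhmt2, Ahcy, Mtr, Mtrr, Cbs and Cth. They were chosen by the gene name given in the array files, which listed 27962 gene or transcript names, and 15 of the 41174 probes belonged to them. For each gene the probe with the highest mean intensity was used. The other probes of Ahcy, Mtr and Mtrr are given beside it for the differences between tissues and between diets. Gene expression was measured in whole colon and liver of 12 female C57BL/6 mice at 12 weeks of age, on 24 two-colour arrays. All dams received HF-low, a high-fat diet with folate at 0.4 mg/kg and selenium at 0.1 mg/kg, from 7 days before mating to the end of lactation. At weaning, at about day 28, 6 daughters stayed on that diet (HF-low-low) and 6 were moved to a high-fat diet with folate at 1.8 mg/kg and selenium at 0.60 mg/kg (HF-low-suf), and each mouse gave 1 colon and 1 liver sample. Every mouse had therefore been exposed to the low diet before weaning and ate a high-fat diet throughout, and all mice were fasted and re-fed before sampling.

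In the methionine cycle, methionine adenosyltransferases join methionine to ATP to make S-adenosylmethionine (SAM), the methyl donor for DNA, histone, lipid and small molecule methylation. Methyl transfer leaves S-adenosylhomocysteine, which is split to homocysteine. Homocysteine is either methylated again, with a methyl group from folate or from betaine, or passed through transsulfuration to cysteine, the precursor of glutathione. The liver is the main organ of this metabolism, and folate, one of the nutrients changed by the diets, supplies the methyl group used by methionine synthase.

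The level of a gene is given as a log2 ratio, the Cy3 signal of the mouse sample over the Cy5 signal of a common reference, a pool of RNA from all colon and liver samples that was hybridised to every array. A log2 ratio of 0 is the level in the reference, and a step of 1 is a doubling. Ratios of different genes were not set against each other as levels, since each probe has its own reference level. Dyes were not swapped. A hepatocyte marker list of 6 genes had mean log2 ratios of 1.38 to 2.19 in the livers and -3.74 to -3.25 in the colons, and a colon epithelium list of 6 genes had 0.70 to 1.21 in the colons and -5.01 to -3.84 in the livers, so the markers followed the tissue labels on every array. The median Cy3 spot was 3.77 to 7.22 times its local background, and the number of arrays limits the precision. Tissue was whole, and fewer cells of a type cannot be told apart from less RNA per cell in any difference below.

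The array measured each transcript through 60-base probes. The following probes are shown because they read genes far higher in liver than in colon and, for Ahcy, give an independent reading away from the other probes of the gene. Positions are on the minus strand of mouse build mm7, as the array files give them, and all letters are in lower case because no stretch is singled out. The Gnmt probe covers a span of 149 bases of the genome, longer than the probe, and so crosses an exon junction.
Bhmt, chr13:90683020-90683079: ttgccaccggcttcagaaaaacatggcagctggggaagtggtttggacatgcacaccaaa
Gnmt, chr17:44855132-44855280: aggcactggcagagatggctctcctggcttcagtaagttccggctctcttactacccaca
Ahcy, chr2:154806443-154806502: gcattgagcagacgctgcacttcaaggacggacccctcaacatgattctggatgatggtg

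Promoter sequences were matched by symbol in a RefSeq table of build GRCm38.p6, which held 8 of the 10 genes. Mat1a and Cth, both higher in liver, were not in it, so the counts below do not cover them. The 250 bases before the annotated start of 4 of them are printed to show how unlike in base composition the promoters of genes with liver-high expression were. They are set beside that of Mat2a, the only one of the 10 genes that passed the test as lower in liver. CG dinucleotides are in capitals, and all are on the minus strand.
Mat2a, chr6:72439557-72439806: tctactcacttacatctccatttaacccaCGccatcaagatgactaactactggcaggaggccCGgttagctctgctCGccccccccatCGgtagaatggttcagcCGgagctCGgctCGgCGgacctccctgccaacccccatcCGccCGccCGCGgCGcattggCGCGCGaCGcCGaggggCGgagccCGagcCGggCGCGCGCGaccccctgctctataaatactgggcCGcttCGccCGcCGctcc
Bhmt, chr13:93637759-93638008: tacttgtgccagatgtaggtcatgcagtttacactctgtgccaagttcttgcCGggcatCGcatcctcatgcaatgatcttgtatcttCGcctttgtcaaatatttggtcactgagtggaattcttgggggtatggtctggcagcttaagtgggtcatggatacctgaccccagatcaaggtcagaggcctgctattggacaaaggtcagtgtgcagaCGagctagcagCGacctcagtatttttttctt
Bhmt2, chr13:93674303-93674552: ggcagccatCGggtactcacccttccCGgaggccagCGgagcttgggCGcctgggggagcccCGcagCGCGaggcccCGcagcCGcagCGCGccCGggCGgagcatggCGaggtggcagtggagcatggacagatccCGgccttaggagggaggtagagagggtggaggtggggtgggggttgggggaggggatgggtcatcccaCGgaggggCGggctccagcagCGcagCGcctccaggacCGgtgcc
Gnmt, chr17:46729166-46729415: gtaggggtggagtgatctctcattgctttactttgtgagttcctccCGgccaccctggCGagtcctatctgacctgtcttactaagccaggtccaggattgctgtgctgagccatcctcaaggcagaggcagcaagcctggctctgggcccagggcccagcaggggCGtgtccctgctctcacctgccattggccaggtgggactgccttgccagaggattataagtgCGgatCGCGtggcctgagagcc

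The Mat2a promoter held 29 CG dinucleotides, a number reached by 6.78% of the 32817 promoters in the table, whose median was 6. Bhmt held 5 and Gnmt held 6. Bhmt2, the neighbour of Bhmt on chromosome 13, with 36265 bases between the probes of the pair in mm7, held 20. The number did not follow the tissue with the higher level, since Bhmt and Bhmt2 were both far higher in liver. Of the other genes, Ahcy held 9, Mtr 20 and Cbs 21, and the pair of annotated starts of Mtrr held 28 and 30. The letters TATAAA, searched on both strands, were found once in the Mat2a window and in none of the others, against 12.4% of all promoters. The letters CAAAGGTCA, part of the direct repeat that the liver factor HNF4A is known to bind, were found once in the Bhmt window and in none of the others, against 0.427% of all promoters. These matches describe the sequence only.

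Liver and colon differed in 8 of the 10 genes. Mat1a, Gnmt, Bhmt, Bhmt2, Ahcy, Cbs and Cth were higher in liver, Mat2a was lower in liver, and Mtr and Mtrr did not pass the test. Over all 41174 probes 11.4% were higher in liver and 12.2% were lower, by an adjusted P (Benjamini-Hochberg) under 0.05 together with a fold above 1.5. The higher calls made up 48.3% of all calls, or 29.2% with each array centred on its median in place of loess. Liver was higher by at least 8-fold for 6 of the 10 genes, against 1.35% of all probes in that direction. The median difference of the 10 genes was 3.36 on the log2 scale, and that of all probes 0.02. The colon and liver arrays did not overlap for any of the 8 genes, and each difference had the same direction in all 12 mice, while 5.97% of all probes had every liver array above every colon array and 6.49% the reverse.

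**Figure D1:**
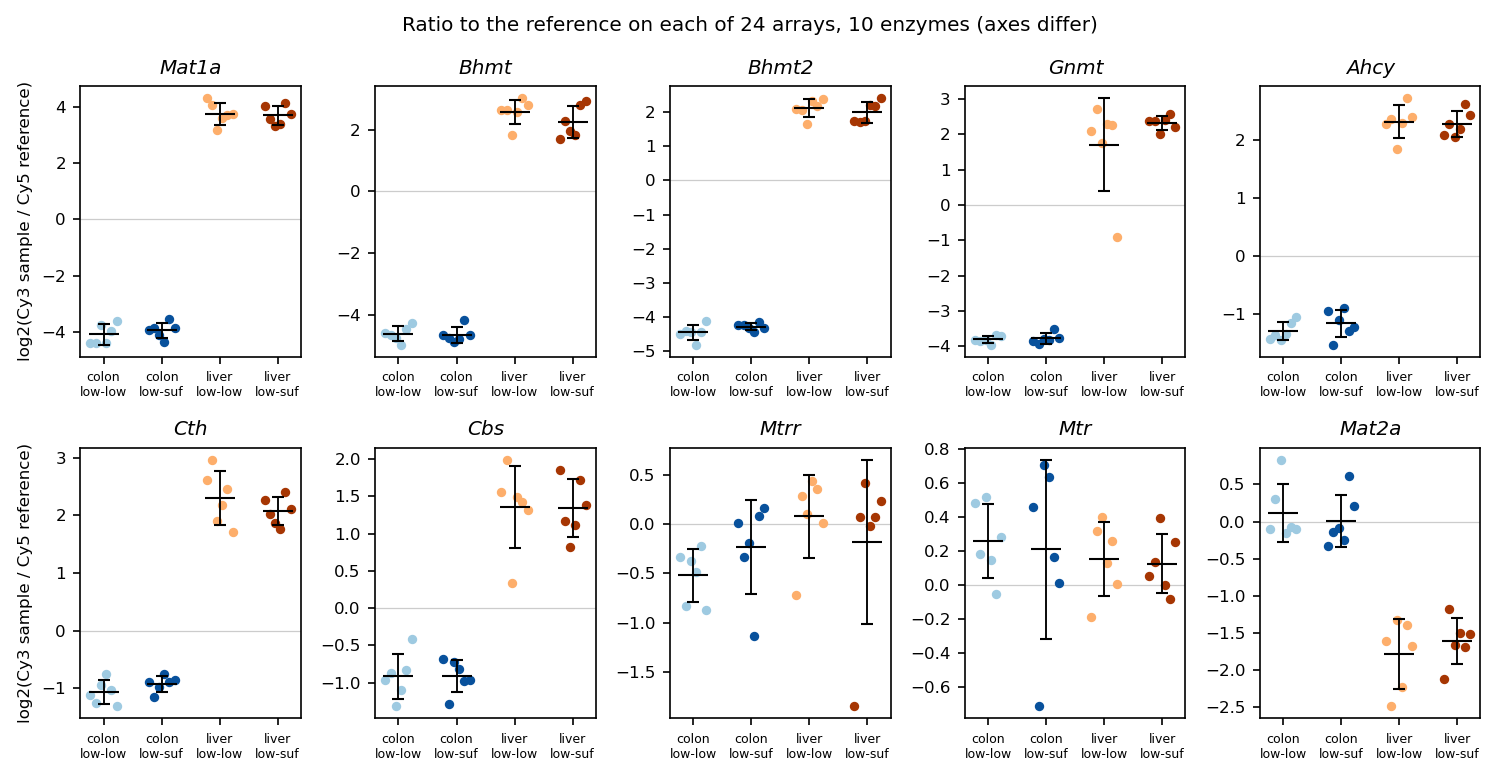
Log2 ratio of sample to reference for the 10 enzymes in colon and liver of mice on HF-low-low and HF-low-suf. Each point is 1 array, the horizontal bar is the mean and the error bars are the SD of 6 arrays, and the vertical axes differ between genes. Colon and liver arrays are separate in every gene but Mtr and Mtrr, and 1 liver HF-low-low array lies at -0.90 for Gnmt.

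The methionine adenosyltransferase genes went in opposite directions. Mat1a encodes the catalytic subunit of the enzyme typical of adult liver. Its log2 ratio was -4.41 at the lowest, -3.95 at the median and -3.55 at the highest of 12 colon arrays, and 3.18, 3.72 and 4.31 in liver. The difference was 7.75 ± 0.13 (SE, n = 12 mice), or 216-fold, with an adjusted P of 4.2e-26 in limma. The gap within a mouse ran from 6.92 to 8.72. In colon the probe was well above background, here and below always in the Cy3 channel, on 6 of 12 arrays, 2 of them HF-low-low and 4 HF-low-suf, so the colon level of Mat1a lay near the limit of detection. The fold ran from 189 to 445 under the alternatives, the highest with the scanner software's processed signals, and it was not ranked against the folds of genes well above background in both tissues.

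Mat2a encodes the catalytic subunit of the form found in most other tissues and in growing cells. Its log2 ratio was -0.33 at the lowest, -0.09 at the median and 0.83 at the highest of the colon arrays, and -2.49, -1.64 and -1.17 in liver. Liver was lower by 3.39-fold, with a log2 difference of -1.76 ± 0.14 (SE) and an adjusted P of 2.9e-11. The probe was well above background on all arrays of both tissues. Mat2b, which encodes the regulatory subunit that binds the Mat2a product, was also lower in liver, with a log2 difference of -1.0 (SE 0.09, adjusted P = 3.0e-10).

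Gnmt encodes glycine N-methyltransferase, an abundant liver enzyme that uses SAM to methylate glycine and is known to be inhibited by a folate form. In colon its log2 ratio ran from -3.95 through a median of -3.82 to -3.52. In liver it ran from -0.90 through 2.29 to 2.71. The difference was 5.81 ± 0.23 (SE), or 56.2-fold, with an adjusted P of 1.6e-17. The low end in liver was a single array, liver HF-low-low replicate 6, and without that mouse the Gnmt difference was 6.08 ± 0.09. The reference spot of Gnmt was saturated on that array, as described with the diets. The SD of the 6 HF-low-low livers was 1.31, and 0.35 for the 5 without that array, beside 0.20 for the 6 HF-low-suf livers. In colon the SDs were 0.09 on HF-low-low and 0.14 on HF-low-suf.

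Ahcy encodes S-adenosylhomocysteine hydrolase, which removes the product that inhibits methyltransferases. All its 3 probes were higher in liver. The main probe had log2 ratios of -1.53 at the lowest, -1.26 at the median and -0.90 at the highest of the colon arrays, and 1.84, 2.29 and 2.72 in liver. The difference was 3.53 ± 0.09 (SE), or 11.6-fold (adjusted P = 1.4e-21). A second probe, with 173 bases between it and the first in mm7, gave 3.78 ± 0.08. The probe printed above, 5444 bases further on, gave 3.29 ± 0.14. The readings of Ahcy thus spanned 9.81-fold to 13.8-fold.

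Bhmt and Bhmt2, the genes of remethylation without folate, were far higher in liver. Bhmt encodes betaine-homocysteine methyltransferase, and Bhmt2 a related enzyme that prefers S-methylmethionine as methyl donor. Bhmt had log2 ratios of -4.95 at the lowest, -4.65 at the median and -4.14 at the highest of the colon arrays and 1.69, 2.59 and 3.01 in liver, a difference of 7.03 ± 0.13 (SE) or 131-fold (adjusted P = 6.2e-25). Bhmt2 had -4.80, -4.36 and -4.11 in colon and 1.65, 2.14 and 2.41 in liver, a difference of 6.42 ± 0.10 or 85.7-fold (adjusted P = 6.5e-27). Both were well above background on all 12 colon arrays. The median raw Cy3 signal of Bhmt was 655 in colon, at 12.6 times its local background, and 84023 in liver.

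The folate-dependent branch was read near the limit of detection. Mtr encodes methionine synthase, which moves a methyl group from methyltetrahydrofolate to homocysteine on a cobalamin cofactor, and Mtrr the reductase that keeps that cofactor active. The main Mtr probe was well above background on 3 of 12 colon and 1 of 12 liver arrays. Its liver minus colon difference was -0.10, with a 95% interval from -0.34 to 0.15 and an adjusted P of 0.61. The other Mtr probe, 33330 bases away in mm7, was well above background on 1 array of each tissue and gave -0.04 (adjusted P = 0.89).

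None of the 3 Mtrr probes was well above background in the Cy3 channel on any of the 24 arrays, while the reference in Cy5 was well above it on all. The main Mtrr probe gave a liver minus colon difference of 0.33, with a 95% interval from -0.07 to 0.72 (adjusted P = 0.205), and its other probes gave 0.27 and 0.20. For Mtrr the result depended on the setting. The difference was 0.61 with an adjusted P of 0.036 and a fold above 1.5 with the scanner software's processed signals, and 0.52 with an adjusted P of 0.0042 in limma, but a fold below 1.5, without the mouse HF-low-suf replicate 1. For Mtr no setting gave a call, which does not show that the levels were alike.

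Both transsulfuration genes were higher in liver, by less than Bhmt and Bhmt2. Cbs encodes cystathionine beta-synthase, which joins homocysteine to serine. Its log2 ratio was -1.31 at the lowest, -0.92 at the median and -0.42 at the highest of the colon arrays, and 0.34, 1.40 and 1.99 in liver, a difference of 2.26 ± 0.14 (SE) or 4.79-fold (adjusted P = 1.4e-13). Cth encodes cystathionine gamma-lyase, which releases cysteine. It had -1.30, -0.96 and -0.75 in colon and 1.72, 2.14 and 2.96 in liver, a difference of 3.18 ± 0.11 or 9.05-fold (adjusted P = 8.1e-19). The gap between colon and liver arrays was narrowest for Cbs among the 7 liver-high genes, since its lowest liver lay at 0.34 and its highest colon at -0.42.

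**Figure D2:**
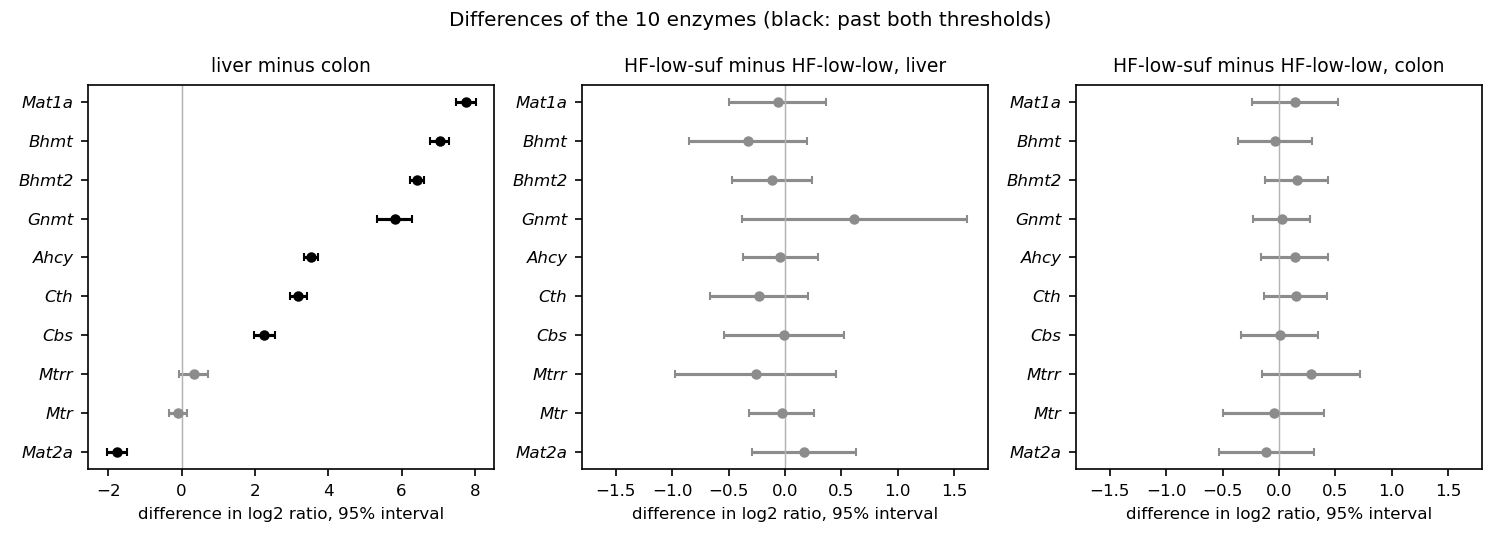
Difference in log2 ratio for the 10 enzymes between liver and colon over 24 arrays, and between HF-low-suf and HF-low-low in liver and in colon over 12 arrays each. Points are limma estimates and bars are 95% intervals, black where both thresholds were passed and grey otherwise. Among genes well above background on all arrays the liver minus colon differences run from -1.76 for Mat2a to 7.03 for Bhmt, Mat1a lies further right with a colon signal near the limit of detection, and every diet interval includes 0.

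The reference channel bears on how these ratios are read. Every array carried the same reference RNA, yet the raw Cy5 signal of Mat1a was 8295 to 11272 on the colon arrays and 14904 to 31122 on the liver arrays. For Bhmt2 the ranges were 16856 to 24126 and 19130 to 26264. A reference of equal parts colon and liver RNA would give a mean linear ratio over both tissues of 1 if signals were proportional to RNA and the dyes balanced. The mean was 6.86 for Mat1a, 2.81 for Bhmt, 2.71 for Ahcy, 2.61 for Cth and 2.32 for Gnmt, and 0.70 for Mat2a. The cause of these departures was not tested. Since the Cy5 signal of a gene could differ between the tissues, the reference did not cancel in full from the liver minus colon differences. A value for the Cy3 channel alone was taken after loess, with the mean intensity of both channels quantile normalized over the arrays. The reference thus still entered through the normalization. From the Cy3 channel alone in this sense, the difference was 8.72 for Mat1a, 7.38 for Bhmt and -1.93 for Mat2a. Gnmt moved from 5.81 or 56.2-fold as a ratio to the reference to 6.93 or 122-fold by the Cy3 channel alone. The first value includes the array of low Gnmt ratio and is 6.08 without that mouse.

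The question put to the diets was whether folate and selenium after weaning moved these genes. The diets raised both nutrients together, so no difference can be assigned to either alone. No gene of the 10 passed the diet threshold (P under 0.01 before adjustment, with a fold above 1.5) in liver or in colon, where 0.117% and 0.168% of all probes passed. None had an unadjusted P below 0.05 in either tissue by its main probe, against 2.13% of all probes in liver and 2.98% in colon. After Benjamini-Hochberg adjustment in limma no probe of the array passed 0.05 in either tissue. Differences are HF-low-suf minus HF-low-low by the Cy3 label of each array. The study's own gene lists state the same convention but give the opposite direction for nearly all of their probes, and which is right was not settled here, so the sign of every diet difference is in doubt, while its size and P would be the same with the diets exchanged. By main probe the differences ran from -0.33 for Bhmt to 0.62 for Gnmt in liver and from -0.11 for Mat2a to 0.28 for Mtrr in colon on the log2 scale. The median of the 10 genes was -0.05 in liver and 0.08 in colon, beside 0.01 and -0.01 over all probes.

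Among the liver differences, that of Gnmt was the largest in size. The HF-low-low livers had Gnmt log2 ratios of -0.90 at the lowest, 2.19 at the median and 2.71 at the highest, and the HF-low-suf livers had 2.0, 2.38 and 2.57. The groups overlapped. The difference of 0.62 ± 0.47 (SE) had a P of 0.207 in limma and of 0.297 when mice were exchanged between diets in an exact permutation test (two-sided). The low value was that of liver HF-low-low replicate 6, and the other 5 livers of the group lay between 1.75 and 2.71. On that array the raw Cy3 signal of Gnmt was 131083, inside the range of 32606 to 139188 of the other 11 livers. The raw Cy5 signal was 591644 and saturated, against 39954 to 74755 on the others. The departure thus lay in the reference channel of 1 spot.

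Without the mouse of that array the Gnmt diet difference in liver was 0.094 ± 0.17, and with the Cy3 channel alone it was -0.015 ± 0.19. Within scan days it was 0.063 ± 0.29 on day 1 and 1.17 ± 0.83 on day 2, which held the array of the saturated spot. A list of exocrine pancreas markers also stood at its highest HF-low-low liver value in the same sample, at a mean log2 ratio of -1.39 for 5 genes against -3.10 to -2.44 in the rest of the group. In the HF-low-suf livers the list ran from -3.03 to -1.33, and the liver at -1.33, replicate 4, had a Gnmt log2 ratio of 2.40. Only 1 of the 5 genes was well above background on all 6 arrays of each liver group. The part of these cells in the Gnmt value was not tested.

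**Figure D3:**
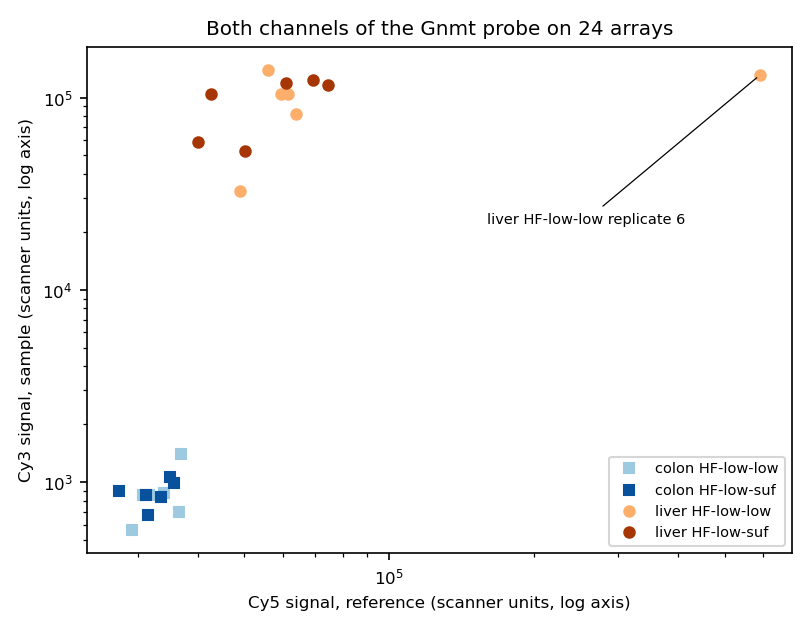
Raw Cy3 signal (sample) against raw Cy5 signal (reference) of the Gnmt probe on the 24 arrays, in scanner units on log axes, coloured by group. Colon arrays lie at Cy3 signals of 560 to 1398 and liver arrays at 32606 to 139188, and liver HF-low-low replicate 6 stands apart in Cy5 only, at 591644.

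Bhmt had the next largest liver difference in size. Its log2 ratios were 1.84 at the lowest, 2.63 at the median and 3.01 at the highest in the HF-low-low livers and 1.69, 2.12 and 2.92 in the HF-low-suf livers. These ranges overlapped almost fully, and the difference of -0.33 had a 95% interval from -0.85 to 0.19 and an exact permutation P of 0.253. Mat1a differed by -0.07 in liver, with an interval from -0.49 to 0.36, and Ahcy by -0.04, with an interval from -0.37 to 0.29. Mat2a differed by 0.17, Bhmt2 by -0.12, Mtr by -0.03, Mtrr by -0.26, Cbs by -0.01 and Cth by -0.23. The other probes gave 0.28 for Mtr, -0.20 and 0.03 for Mtrr, and -0.07 and -0.07 for Ahcy. Apart from Gnmt, the widest interval among the genes well above background in liver was that of Cbs, from -0.55 to 0.52.

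In colon the main probe of Ahcy differed by 0.14, with a 95% interval from -0.16 to 0.44. The printed Ahcy probe gave 0.33, from ratios of -1.02 at the lowest, -0.83 at the median and -0.49 at the highest on HF-low-low and -0.86, -0.45 and -0.14 on HF-low-suf. That value had an unadjusted P of 0.046 in limma and 0.045 in the exact permutation test and did not pass the threshold used for calls, and the third Ahcy probe gave 0.05. The intervals of the 3 probes overlapped. Bhmt2 differed by 0.16 in colon, Cth by 0.15, Mat1a by 0.14, Gnmt by 0.03, Cbs by 0.01, Bhmt by -0.04 and Mtr by -0.05. The widest of these intervals was that of Mtr, from -0.50 to 0.40. The other Mtr probe gave 0.18 in colon. The other Mtrr probes, never well above background, gave 0.54 (unadjusted P = 0.080 in limma) and 0.04.

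The effect of the diet was also compared between the tissues, as the liver difference minus the colon difference with the mouse as a random block. None of the 10 genes passed an adjusted P of 0.05, nor did any probe of the array, of which 6.43% had an unadjusted P below 0.05. The values ran from -0.54 for Mtrr to 0.59 for Gnmt. The Gnmt value rested on the array with the saturated reference spot, and it was 0.051 without that mouse and -0.058 with the Cy3 channel alone. The Mtrr value came from a probe never well above background, and ran from -0.75 without HF-low-suf replicate 4 to -0.16 without HF-low-suf replicate 1. The smallest unadjusted P of a main probe was 0.104, for Cth at -0.38. A second Mtrr probe, never well above background, gave -0.74 with an unadjusted P of 0.049 and an adjusted P of 0.78. The liver minus colon difference held within each diet. It was 7.18 on HF-low-low and 6.89 on HF-low-suf for Bhmt, 3.37 and 2.99 for Cth, and -1.90 and -1.62 for Mat2a.

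The genes around the cycle were described with 40 others in 6 groups, all of which were on the array. Of these, 27 were higher in liver, 6 were lower and 7 had no call, beside 11.4% of all probes higher and 12.2% lower. None had a diet call in either tissue, where 0.117% of all probes in liver and 0.168% in colon had one, so a count of 0 among 40 genes does not set them apart. Their median liver minus colon difference was 1.14 on the log2 scale. Among partners of the cycle and genes of adenosine removal, 1 of 4 was higher in liver and 2 were lower. Adk, which encodes the kinase that clears adenosine, differed by 2.04, and Ahcyl2, a relative of Ahcy listed on the array by a clone name, by -2.01, while Mat2b is given above.

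In methyl donor supply, Dmgdh and Sardh, the mitochondrial dehydrogenases that act on dimethylglycine and sarcosine downstream of betaine and Gnmt, differed by 6.72 and 4.46. Dmgdh was well above background on 5 of 12 colon arrays, so its colon level lay near the limit of detection. SAM-dependent methyltransferases were higher in 6 of 7 genes. Pemt, which makes phosphatidylcholine, differed by 4.55, and Gamt, of creatine synthesis, by 3.95. Pemt was well above background on 8 of 12 colon arrays. Cobalamin handling was higher in 2 of 4, Mmachc by 0.99 and Mmadhc by 0.76, both of which encode proteins that process the cofactor inside the cell.

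In polyamine synthesis and methionine salvage 5 of 8 genes were higher in liver and 2 were lower. Adi1 and Apip, of the salvage pathway, differed by 2.0 and 1.25. Enoph1, of the same pathway, and Sms, spermine synthase, differed by -0.85 and -0.68. Adi1 was well above background on 10 of 12 colon arrays, and Enoph1 on 4 of 12 liver arrays. In cysteine use and sulfide oxidation 7 of 11 were higher and 2 were lower. Cdo1, the dioxygenase that starts cysteine breakdown, differed by 3.71 and Got1 by 2.39. Ethe1 and Sqrdl, which encode enzymes of mitochondrial sulfide oxidation, differed by -1.82 and -1.18, and so were higher in colon.

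**Figure D4:**
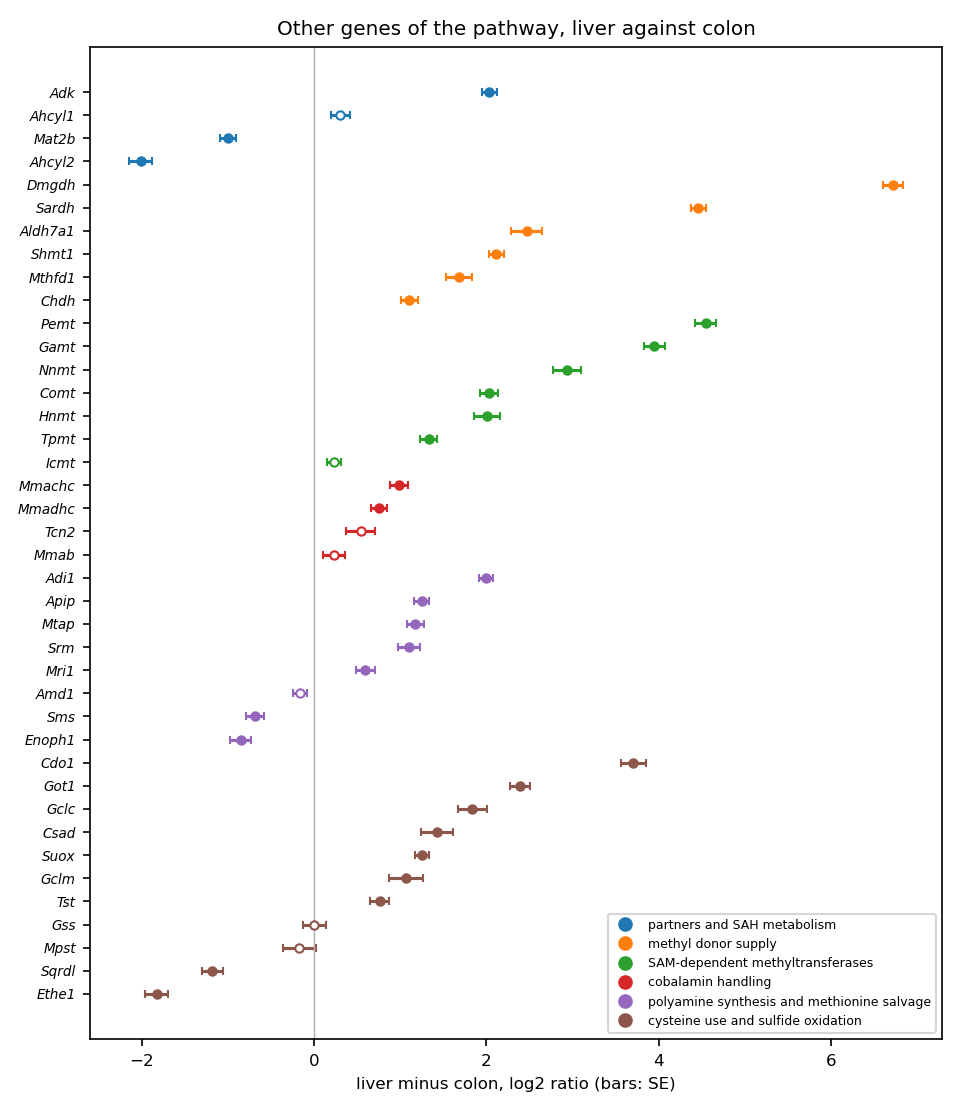
Liver minus colon difference in log2 ratio for the 40 other genes of the pathway, ordered within 6 groups by the size of the difference. Points are limma estimates over 24 arrays, bars are SEs and filled points passed both thresholds. The differences run from -2.01 for Ahcyl2 to 6.72 for Dmgdh, with 27 filled points to the right of 0 and 6 to the left. Dmgdh was well above background on 5 of 12 colon arrays.

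Markers of other cell types differed between single samples of a group. An adipose list of 4 genes had a mean log2 ratio of 2.39 in liver HF-low-suf replicate 1, against -0.92 to 0.03 in the other livers of that group and -1.03 to -0.13 in the HF-low-low livers, and a skeletal muscle list of 4 genes was highest in liver HF-low-suf replicate 2, at -3.04. Without these livers 0 of the 10 genes had a diet call in liver and 8 still differed between the tissues. In colon the adipose list was lowest in HF-low-suf replicate 5, at 0.82, against 2.22 to 2.54 in the rest of that group. The part of these cell types in the diet differences was not tested.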

How the data were processed

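Arrays were grouped by tissue and diet from the labels of the Cy3 channel, with 6 arrays per group on 6 slides of 4. The authors deposited 1 scanner file per array, made with Feature Extraction 9.5.3.1. The deposited intensity values used are the mean raw Cy3 and Cy5 signals and the median local background. Signals were background corrected (normexp, offset 50) and loess normalized within each array in limma 3.58.1 (R 4.3.3), with 1639 control spots and outlier spots left out, and spots of a probe were averaged. The submitters' notes name limma, the study's methods global loess. Whole colon and liver tissue was used, and depth is not defined for arrays.

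Diet was tested in each tissue on 12 arrays with lmFit and eBayes (unadjusted P below 0.01 and fold above 1.5, the study's thresholds). Liver against colon, and the difference of the diet effect between tissues, were fitted over 24 arrays, in which duplicateCorrelation (statmod 1.5.0) took the mouse as a random effect, with Benjamini-Hochberg adjustment at 0.05. The pairing of colon and liver comes from the mouse number in the labels. Deviations from the group means of the colon and liver of a mouse correlated between -0.03 and 0.28. Single values were also tested by exact permutation.

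The genes, the lists of other genes and the tests were chosen with earlier results of these data known. All 10 genes are named, with, of each list of other genes, those called by diet and up to 2 in each direction with the largest called tissue difference. Gclc was named after its value was seen. A gene of the lists is not reported here. Some genes were found through current RefSeq names. Scripts were tested on simulated data. Alternatives covered background, normalization, filters, blocks, scan days, probes, left-out mice, and the 2 arrays of brightest reference channel left out. Replicate arrays correlated between 0.655 and 0.938, and no pair was a duplicate.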

Additional observations from a re-analysis of the deposited data

Results flagged for a closer look

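A sample stood far from the others of its group in 4 of 40 groups of 6 arrays (10 genes in 4 groups), where chance flags about 1 in 20 groups. Gnmt in liver HF-low-low replicate 6 had a log2 ratio of -0.90, with the next array at 1.75. Its Cy5 spot was saturated, as described above. Bhmt in colon HF-low-suf replicate 5 had -4.14, with the next array at -4.64, and this array had the brightest reference channel of the 24, with a median Cy5 spot of 18.2 times its local background. The next brightest, liver HF-low-suf replicate 4, had 12.7 times, and 8.75% of its spots were outliers, against at most 0.77% on any other array. Mtrr in liver HF-low-low replicate 1 had -0.72, with the next at 0.02, and in liver HF-low-suf replicate 1 it had -1.84, with the next at -0.02. No Mtrr probe was well above background on these arrays. The diet effect did not pass the adjusted threshold for a difference between tissues in any of the 10 genes.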

How the results depend on the processing

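The count of the 10 genes called by diet was 0 in each tissue under every alternative run, and the count called between liver and colon stayed at 8, except that Mtrr (log2 difference 0.61, adjusted P = 0.036) was also called with the scanner software's processed signals. Mtr and Mtrr did not pass the filter on dim probes and had no value there. The 8 called differences kept their direction throughout. That of Mat1a ran from 189-fold to 445-fold and that of Gnmt from 52.3-fold to 122-fold, the highest with the Cy3 channel alone. Diet differences of genes with no call changed sign, moving by more than their standard error, in 8 cases, and the cause was not tested. With the Cy3 channel alone Gnmt was -0.015 in liver and -0.058 for the diet effect in liver minus in colon, and Mtrr was -0.0093 in colon. With median centring Bhmt was 0.13 in colon. With the median over the probes of a gene Mtr was 0.13 in liver. On scan day 2 alone Mat2a was 0.30 in colon. With the processed signals Mtr was -0.34 for the diet effect in liver minus in colon. Without the livers of high adipose or muscle markers, a setting added after seeing the data, Mtrr was 0.094 in liver. Leaving out each mouse in turn, the Gnmt diet difference in liver ran from 0.094 without HF-low-low replicate 6 to 0.82, and it was 1.17 on scan day 2 alone.

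Of the other 40 genes, 0 had a diet call, except 1 in colon on scan day 2 alone, Gclc at a log2 difference of 0.83. With the slide as replicate block the counts were 0 for diet in each tissue and 8 for liver against colon. The slide number paired the samples in neither tissue, with correlations of deviations from -0.50 to 0.53 in liver and -0.09 to 0.24 in colon. With no replicate block for the mouse, or with the mouse as a fixed block, 8 genes were called between tissues and 0 for the difference of the diet effect. Over all probes, the 48 diet calls in liver ranged from 2 to 304 under the alternatives and the 69 in colon from 3 to 278. Signal over background limits Mtr and Mtrr in both tissues and Mat1a in colon, and saturation limits 1 Gnmt spot.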
